A study of Mus musculus with 12 samples.

Results

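The genes of the replication-dependent core histones and of the linker histones were followed in NIH3T3 cells during treatment with difluoromethylornithine (DFMO). A transcript cluster is the array's unit for 1 gene or for several, often near-identical, genes. It was taken when any of its gene symbols began with H1f, H2ac, H2bc, H3c or H4c and a number. This gave 56 of 35399 clusters, and a cluster with several histone symbols was counted once. They comprised 8 clusters of linker (H1) genes, 6 of H2A, 16 of H2B, 13 of H3 and 12 of H4 genes, and 1 that named both H2bc6 and H1f4. Only 30 clusters named a single gene. The other 26 named several genes, 24 of them more than 2. Those 24 are called shared clusters, since their signal cannot be assigned to 1 gene. Most of the 26 name near-identical copies of 1 histone class. The cluster of H2bc6 and H1f4 names 2 classes, and both shared H2A clusters also name H3c4 and H2ax. The 56 clusters carried 38 distinct sets of symbols.

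NIH3T3 is an established line of mouse embryo fibroblasts, and DFMO blocks ornithine decarboxylase, the enzyme that makes the polyamine putrescine. Cells in the G1 phase were sorted, and their total RNA was hybridised to 12 whole-transcript arrays, to ask how transcripts respond to polyamine loss. The groups were untreated cells (3 arrays) and cells in 1 mM DFMO for 12 h (2 arrays), 24 h (3 arrays), 48 h (2 arrays) and 96 h (2 arrays). All were described as biological replicates of this 1 line, whether the cultures were separate is not stated further, and no agent other than DFMO was named. Untreated cells stand for 0 h, so time in culture and time in the drug cannot be told apart. Levels are log2 values as deposited, and a log2 change of 1 is a 2-fold change.

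Replication-dependent histone genes supply the protein onto which new DNA is wound, and their mRNAs are most abundant in S phase. These mRNAs end in a stem-loop in place of a poly(A) tail, the stem-loop binding protein SLBP holds that end, and the mRNAs are degraded when DNA synthesis stops. H2A, H2B, H3 and H4 form the nucleosome core, and H1 binds the DNA that enters and leaves it. Some of the genes can also give polyadenylated mRNA, which has been described in cells that have left the cycle.

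Array medians lay between 4.13 and 4.20, and replicate arrays correlated with r of 0.9902 to 0.9959 across clusters. All 10 fibroblast markers were measured, with a median untreated level of 11.48. The median untreated level was 3.57 over the 19 measured leukocyte markers, 3.45 over the 7 epithelial markers and 3.52 over the 6 endothelial markers. The highest untreated mean was 4.34 among leukocyte and 3.76 among endothelial markers, near the array's floor, but 8.83 among epithelial markers (Krt14). Background stays in such values, so a log2 change from or to this floor is too small. Untreated replicate 3, 12 h replicate 2 and 24 h replicate 3 deviated from their group means together (r of 0.36, 0.49 and 0.36 across clusters). Every count of histone clusters compared with untreated cells was therefore also made without these 3 arrays. Across the histone clusters alone the 3 r values were 0.68, 0.15 and 0.20. The deviations of the 2 arrays at 12 h mirror each other, so which of those 2 deviated cannot be told. Some markers moved at 96 h too: 1 of 10 fibroblast markers was higher (Fn1) and 4 were lower (Thy1, Col1a1, Lox and Vim), and the arrays' mean over the 10 was 10.31 to 10.39 at 96 h, against 10.69 to 10.76 in untreated cells. One leukocyte (Lyz2), 1 endothelial (Tek) and 1 epithelial marker (Cdh1) were higher and 1 epithelial marker (Krt14) lower. No marker was called at 48 h, and the part of these shifts in the histone changes was not tested. In bulk RNA of this kind, fewer cells that express a gene and less of its RNA per cell cannot be told apart.

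The histone clusters did not move as 1 group. No histone cluster passed the test at 12 h or 24 h (limma, adjusted p under 0.05 over all 35399 clusters), against 0% and 0.0311% of all clusters. An unadjusted p under 0.05 was found for 2 of the 56 at 12 h and for 4 at 24 h, against 1463 and 2816 of all 35399. At 48 h only H2bc4 was called, as higher, where 1.31% of all clusters were called higher and 1.79% lower (3.1% together). An unadjusted p under 0.05 was found for 10 of the 56 at that time, 7 of them shared H3 clusters, against 6203 of all 35399.

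At 96 h, 9 of the 56 rose and 13 fell, where 7.77% of all clusters were called higher and 7.12% lower (14.9% together). The 13 that fell include 10 shared H3 clusters with 1 common set of symbols, so by distinct sets of symbols 9 rose and 4 fell. Without 96 h replicate 2, which leaves 1 array at 96 h, most of the rises kept their call and none of the falls did. Fewer of all clusters were called in that fit too. Without untreated replicate 2, 9 rose and 7 fell, where 11.7% of all clusters were called. Without the 3 arrays that deviated together, 9 rose and 14 fell, but 17 of the 22 calls were kept, 5 were lost (3 shared H3 clusters, a shared H2A cluster and H4c4) and 6 were gained (the 5 shared H4 clusters, lower, and H2bc22, higher). The F test over the 4 times called 15 of the 56, against 10.3% of all clusters, and between 5 and 20 when 1 array was left out. With the replicate number as a block it called 8.

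The 56 log2 changes ranged from -1.41 to 3.78 at 96 h, with a median of -0.01, against -0.00 over all clusters. At 12, 24 and 48 h the medians were 0.13, 0.05 and -0.07, against -0.02, -0.02 and -0.03 over all clusters. Of the 56, 21 had both 96 h arrays above all untreated arrays and 22 had both below, where 20% and 19.4% of all clusters did. The highest group mean was over 5 for 39 of the 56, which include 7 of the 9 clusters that rose and all 13 that fell. Among all 14464 clusters over 5, 16.6% were called higher and 16.3% lower at 96 h. H3c4 was over 5 only through its 96 h mean of 5.15. At 12 h, 47 of the 56 log2 changes were positive, against 15260 of all 35399, and none was called. At 48 h the change was positive in all 16 H2B clusters, 4 of 6 H2A, 2 of 8 H1, 3 of 12 H4 and 0 of 13 H3 clusters, against 14086 of all 35399. Clusters of a class name overlapping sets of genes, so these counts are not of independent genes.

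**Figure D1:**
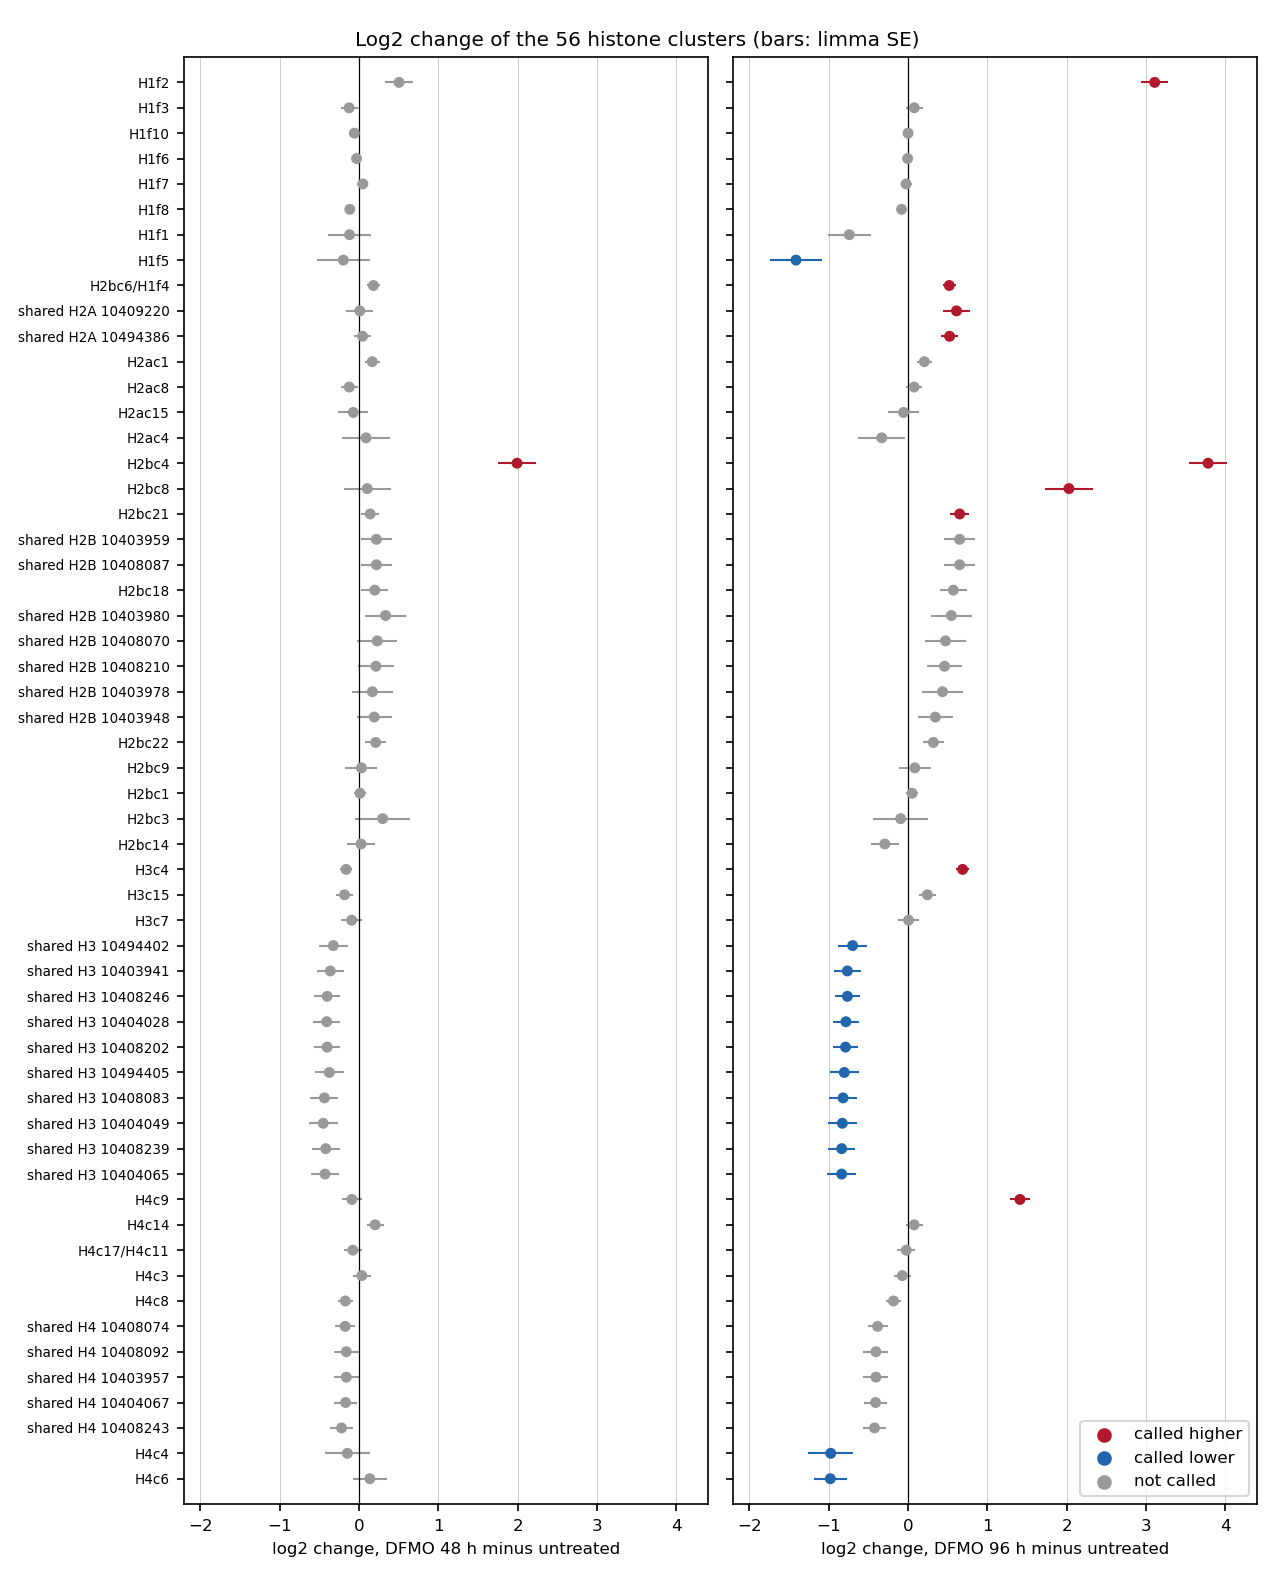
Log2 change of each of the 56 histone clusters at 48 h (left) and 96 h (right) of DFMO relative to untreated cells, with limma's standard error as bars and histone classes from top to bottom. At 48 h H2bc4 alone is called, at 1.99, and at 96 h 9 clusters are called higher and 13 lower, 10 of them the shared H3 clusters.

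The linker genes divided. H1 proteins compact chromatin by binding linker DNA, and mouse somatic cells make several near-equivalent subtypes. H1f2 had log2 levels of 7.83 and 7.71 at 96 h, against 4.60, 4.51 and 4.86 in untreated cells. Both 96 h arrays stood far above every other array of the series, the next being 24 h replicate 3 at 5.45. Its remaining levels were 4.81 and 4.88 at 12 h, 4.85 and 5.01 at 24 h and 5.04 and 5.29 at 48 h. The log2 change at 96 h was 3.11 ± 0.17 (SE), an 8.64-fold higher level (limma adjusted p = 5.02e-06, n = 2 against 3).

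H1f5, another somatic subtype, fell. Its log2 levels were 7.01 and 6.95 at 96 h, against 8.42, 8.74 and 8.02 in untreated cells. The levels in between were 9.11 and 8.16 at 12 h, 9.17, 9.16 and 8.33 at 24 h, and 8.24 and 8.15 at 48 h. The 96 h arrays lay below all 10 others, while the 12, 24 and 48 h groups each overlapped the untreated arrays. The log2 change at 96 h was -1.41 ± 0.33 (SE, limma adjusted p = 0.0195, n = 2 against 3), a 2.66-fold lower level. The call was lost without untreated replicate 1 or 2 or without 96 h replicate 1 or 2, at log2 changes that ranged from -1.60 to -1.24 when single arrays were left out.

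H1f1, also a somatic subtype, had log2 levels of 5.34 and 5.14 at 96 h, against 6.01, 6.02 and 5.92 in untreated cells, and did not pass the test (log2 change -0.74, limma adjusted p = 0.121). Its 96 h arrays lay below all untreated ones, and its 12 h arrays spread from 5.65 to 6.69. It passed with only clusters over 5 tested, with the replicate block (adjusted p = 0.0467), with only the groups compared in the fit and without either 12 h array. H1f3 stood at 4.65 and 4.68 at 96 h, against 4.52, 4.67 and 4.57 in untreated cells, with overlapping groups. H1f6 and H1f7, linker genes known from the testis, H1f8, known from the oocyte, and H1f10, a replication-independent linker gene, were near the floor. H1f6 stood at 3.56 and 3.58 at 96 h, against 3.53, 3.62 and 3.57 in untreated cells, and H1f7 at 3.84 and 3.82 at 96 h, against 3.83, 3.89 and 3.84. For H1f8 the levels were 3.16 and 3.16 at 96 h, against 3.22, 3.17 and 3.33 in untreated cells, and for H1f10 3.63 and 3.73 at 96 h, against 3.66, 3.71 and 3.66. Their log2 changes at 96 h lay between -0.08 and 0.00, none called. H1f0, which the symbol rule would also take, had no cluster of its own among those analysed here.

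Because H1f2 and H1f5 moved in opposite directions, the 200 bases before their RefSeq gene starts are given, from assembly GRCm38.p6, 5′ to 3′ along the gene. H1f2 covers chr13:23738607-23738806 on the plus strand, and H1f5 covers chr13:21780626-21780825 on the minus strand. Capitals mark the letters searched on both strands. The H1 box was searched as AAACACA, the CCAAT box as CCAAT, the TATA motif as TATAAA and the octamer as ATTTGCAT, and no matches overlapped in the windows shown.
H1f2: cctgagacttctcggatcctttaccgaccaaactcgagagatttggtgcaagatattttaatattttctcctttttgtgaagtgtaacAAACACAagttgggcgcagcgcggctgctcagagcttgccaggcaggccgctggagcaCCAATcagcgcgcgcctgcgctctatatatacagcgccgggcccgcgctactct
H1f5: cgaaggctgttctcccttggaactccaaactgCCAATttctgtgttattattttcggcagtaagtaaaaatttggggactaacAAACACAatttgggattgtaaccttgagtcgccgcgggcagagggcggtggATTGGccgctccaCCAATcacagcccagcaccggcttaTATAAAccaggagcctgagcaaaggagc
Both hold 1 H1 box, at bases -112 to -106 in H1f2 and -117 to -111 in H1f5. H1f2 has 1 CCAAT box and H1f5 has 3, and the exact letters TATAAA were found in H1f5 only. The H1f2 window holds the TATA-like stretch tatatata, which the search did not count. The H1 box letters occurred in 5 of 9 H1 promoters and in 4.80% of all 32851 promoters. A match is a description of letters and not of binding.

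**Figure D2:**
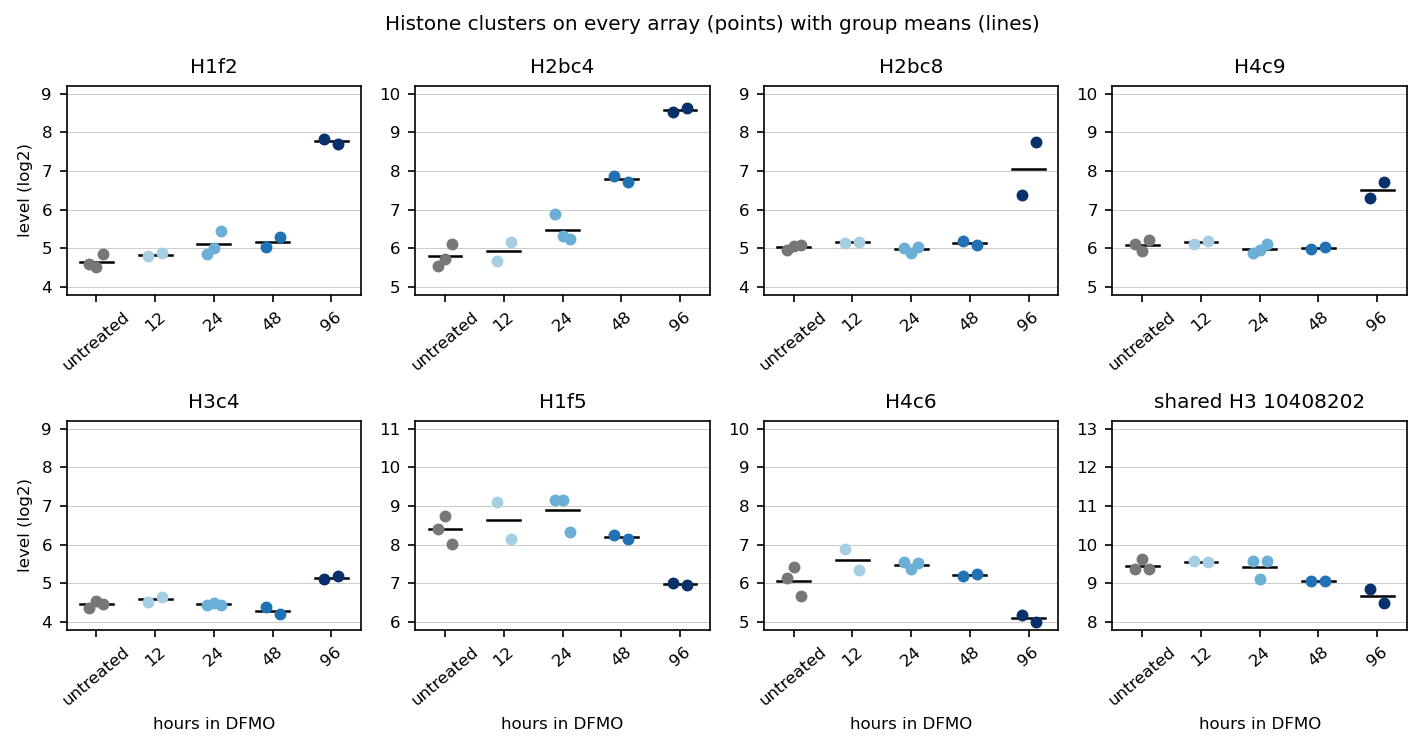
Log2 level on every array (points, with group means as lines) for 8 histone clusters in order of hours in DFMO, each panel spanning an equal range of log2 units. H1f2, H2bc8, H4c9 and H3c4 are high on the 96 h arrays, H2bc4 climbs from 48 h, and H1f5, H4c6 and a shared H3 cluster are low at 96 h.

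The largest rise was that of an H2B gene. H2bc4 had log2 levels of 7.89 and 7.71 at 48 h and 9.54 and 9.64 at 96 h, against 5.54, 5.74 and 6.13 in untreated cells. At 12 h it stood at 5.69 and 6.18, and at 24 h at 6.90, 6.31 and 6.24. The groups separated in order of time from 24 h on, with all 24 h arrays above the untreated ones, although the 24 h change was not called (log2 change 0.68 ± 0.21, limma adjusted p = 0.518).

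The log2 change of H2bc4 was 1.99 ± 0.23 (SE) at 48 h, a 3.98-fold higher level (limma adjusted p = 0.00406, n = 2 against 3), which was the highest value among all 35399 clusters at that time. At 96 h it was 3.78 ± 0.23, a 13.8-fold higher level (limma adjusted p = 1.11e-05). Both calls held in each of the 12 fits that left out 1 array, with log2 changes of 1.86 to 2.15 and of 3.65 to 3.94. In no other histone cluster was the 48 h change called, and the H1f2 change at 48 h was 0.50 ± 0.17 (adjusted p = 0.169). With the replicate number as a block in the model, H1f2 was called at 48 h as well (log2 change 0.64, adjusted p = 0.0252).

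H2bc8 rose late and unevenly. Its log2 levels at 96 h were 6.39 and 7.74, against 4.96, 5.06 and 5.09 in untreated cells, and all arrays of 12, 24 and 48 h lay between 4.88 and 5.20. The 96 h replicates thus differed by more than 1 log2 unit, yet both lay above every other array. The log2 change was 2.03 ± 0.30 (SE, limma adjusted p = 0.0017, n = 2 against 3). With 96 h replicate 2 left out it was 1.35, with replicate 1 left out 2.71, and it was called in both cases.

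H2bc21, on chromosome 3 away from the main histone clusters of chromosome 13, had log2 levels of 4.52 and 4.99 at 96 h, against 4.08, 4.12 and 4.10 in untreated cells. All other arrays lay between 4.05 and 4.31, close to the floor. Its log2 change was 0.65 ± 0.12 (SE, limma adjusted p = 0.00511) and moved to 0.42 or 0.89 when 96 h replicate 2 or replicate 1 was left out. The cluster that names both H2bc6 and H1f4 had 4.70 and 4.72 at 96 h, against 4.28, 4.15 and 4.14 in untreated cells, a log2 change of 0.52 ± 0.08 (limma adjusted p = 0.00215). Its arrays of 12, 24 and 48 h lay between 4.23 and 4.46, and the signal cannot be assigned to either gene.

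The other 6 single-gene H2B clusters were not called at 96 h. H2bc18 was nearest to the threshold (log2 change 0.57 ± 0.17, adjusted p = 0.0557), and H2bc14 had the most negative value of the class (-0.29 ± 0.17, adjusted p = 0.387). H2bc8 is the only H2B gene among the 7 called genes with a RefSeq promoter. Its promoter, which holds the octamer, is shown (capitals as above). It covers chr13:23571200-23571399 on the plus strand.
H2bc8: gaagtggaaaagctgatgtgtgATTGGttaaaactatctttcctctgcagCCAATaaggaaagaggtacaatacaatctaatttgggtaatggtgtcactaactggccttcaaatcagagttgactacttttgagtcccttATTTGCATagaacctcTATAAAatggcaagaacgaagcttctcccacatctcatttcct
The octamer lies at bases -59 to -52, and the TATA motif lies after it at -43 to -38. The octamer occurred in 7 of 15 H2B and 6 of 17 H2A promoters and in 0 of the H1, H3 and H4 promoters, against 1.38% of all promoters. H2bc4 and H2bc21 are not shown.

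No single-gene H2A cluster was called. H2A pairs with H2B, and its genes often lie beside an H2B gene. Of 4 single-gene clusters, H2ac1, H2ac4, H2ac8 and H2ac15, none was called at any time, where 14.9% of all clusters were called at 96 h. The 4 are too few to set against that share. Their log2 changes at 96 h lay between -0.33 and 0.21. The untreated means of H2ac1 and H2ac8, 3.77 and 4.51, lie near the floor. Of the shared H2A clusters, 10409220 had log2 levels of 10.40 and 10.05 at 96 h, against 9.65, 9.78 and 9.40 in untreated cells. Both 96 h arrays lay above all others of the series, the highest of which was 9.88. The log2 change was 0.61 ± 0.17 (SE, limma adjusted p = 0.0401), but the call held in only 4 of the 12 fits that left out 1 array. It was also lost without the 3 arrays that deviated together (adjusted p = 0.0789) and with the replicate block (0.0623).

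The other shared H2A cluster, 10494386, rose by 0.52 ± 0.11 on the log2 scale (limma adjusted p = 0.0112) and was lost only without 96 h replicate 1. Both clusters also name H3c4 and H2ax, and the first names H2aj. The clusters of H2aj and of H3c4 rose and that of H2ax fell, as given below.

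The shared H3 clusters fell at 96 h. H3 carries many of the modified tail residues of chromatin. The 10 shared H3 clusters name 1 set of 12 genes and correlated with each other across the arrays with r of 0.9874 or more, so they are close to 1 measurement. Their mean log2 level was 8.83 and 8.45 at 96 h, against 9.35, 9.59 and 9.36 in untreated cells. At 12 h it was 9.53 and 9.51, at 24 h 9.55, 9.01 and 9.57, and at 48 h 9.03 and 9.04. The arrays of 48 h and 96 h lay below all untreated ones, and so did 24 h replicate 2.

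Of the 10, the smallest F test p belonged to 10408202, with a log2 change at 96 h of -0.79 ± 0.16 (SE, limma adjusted p = 0.0097, n = 2 against 3), a 1.73-fold lower level. At 48 h its change was -0.40 ± 0.16, not called (adjusted p = 0.237). Over the 10 clusters the 96 h log2 change ranged from -0.84 to -0.70 (adjusted p = 0.0097 to 0.0288). All 10 calls were lost without 96 h replicate 2, with 10408202 then at -0.60. Without the 3 arrays that deviated together 7 of the 10 were called, and with the replicate block 9 were. At 48 h the 10 values ranged from -0.45 to -0.32, none called.

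Among single-gene H3 clusters the picture differed. H3c4 had log2 levels of 5.10 and 5.19 at 96 h, against 4.37, 4.55 and 4.45 in untreated cells, with every other array between 4.21 and 4.65. Its log2 change was 0.69 ± 0.08 (SE, limma adjusted p = 0.000388). H3c4 is also 1 of the 12 genes named by the shared H3 clusters, which fell. The difference between these clusters was not tested, since levels of different probes are not set against each other. H3c15 and H3c7 were not called (log2 changes 0.25 and 0.01).

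**Figure D3:**
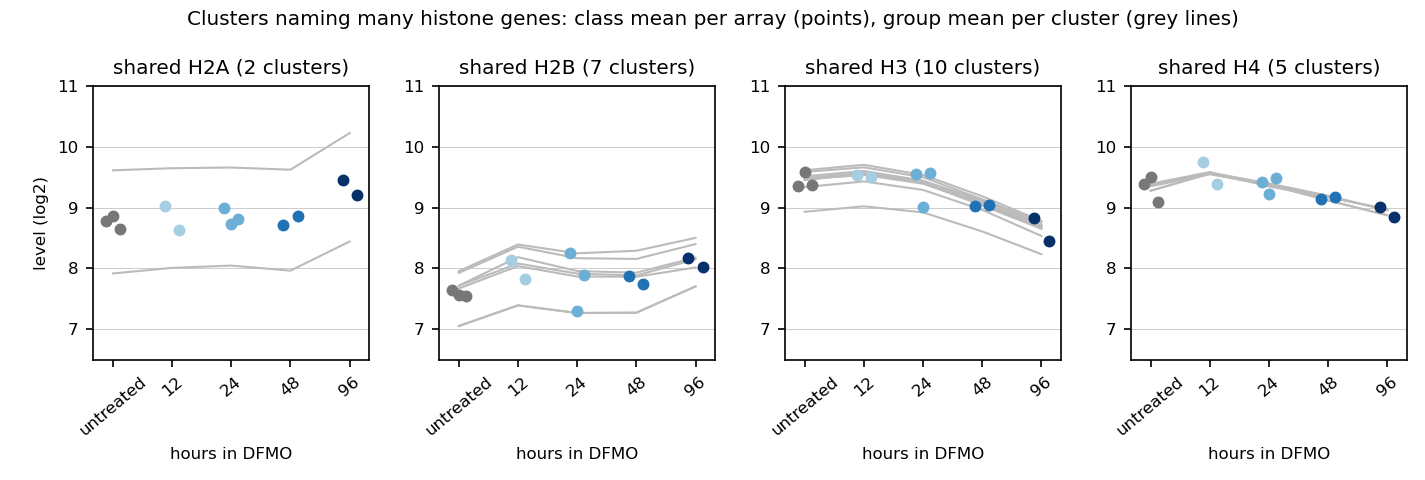
Mean log2 level of the shared clusters of each core histone on every array (points) and the group mean of each cluster (grey lines), in order of hours in DFMO. The shared H3 mean is 8.83 and 8.45 on the 96 h arrays and 9.35 to 9.59 on untreated ones, and the shared H2B mean runs the other way without a call.

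H4 genes went both ways. H4 is the most conserved core histone, and its gene copies encode the same protein. H4c9 had log2 levels of 7.30 and 7.71 at 96 h, against 6.12, 5.95 and 6.21 in untreated cells, and the other arrays lay between 5.87 and 6.20. Its log2 change was 1.41 ± 0.13 (SE, limma adjusted p = 0.000102, n = 2 against 3), a 2.66-fold higher level that was called in all 12 fits that left out 1 array. Only the 96 h arrays stood apart.

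H4c6 had log2 levels of 5.18 and 5.00 at 96 h, against 6.12, 6.41 and 5.68 in untreated cells. The 12 h arrays (6.89 and 6.33), the 24 h arrays (6.55, 6.36 and 6.53) and the 48 h arrays (6.19 and 6.23) all lay above the 96 h ones. Its log2 change was -0.98 ± 0.21 (SE, limma adjusted p = 0.0128), lost without either 96 h replicate. H4c4 stood at 6.34 and 5.63 at 96 h, against 6.94, 6.96 and 6.99 in untreated cells. Its log2 change of -0.97 ± 0.28 (limma adjusted p = 0.0484) was lost in 9 of the 12 fits that left out 1 array, and without the 3 arrays that deviated together (adjusted p = 0.123).

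The 5 shared H4 clusters had 96 h log2 changes of -0.42 to -0.38, none called, although all 5 were called lower without the 3 arrays that deviated together. Their mean log2 level was 9.01 and 8.85 at 96 h, against 9.39, 9.51 and 9.10 in untreated cells. The 7 shared H2B clusters had positive 96 h values of 0.35 to 0.65, none called (2 were with the replicate block), with a mean log2 level of 8.16 and 8.02 at 96 h, against 7.65, 7.56 and 7.54 in untreated cells. In between it was 8.14 and 7.82 at 12 h, 8.26, 7.30 and 7.89 at 24 h, and 7.88 and 7.74 at 48 h, with 24 h replicate 2 the lowest array of the series. H2bc4 and H2bc8 are among the genes these H2B clusters name. A pair of the shared H2B clusters and a pair of the shared H4 clusters hold identical values, so neither pair is independent.

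The promoters of H4c9, which rose, and H4c6, which fell, are given for comparison. H4c9 covers chr13:22041363-22041562 on the minus strand, and H4c6 covers chr13:23551669-23551868 on the minus strand.
H4c9: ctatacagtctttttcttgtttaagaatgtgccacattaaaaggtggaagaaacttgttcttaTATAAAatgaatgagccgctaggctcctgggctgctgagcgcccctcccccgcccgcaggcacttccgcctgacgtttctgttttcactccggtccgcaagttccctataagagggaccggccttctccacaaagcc
H4c6: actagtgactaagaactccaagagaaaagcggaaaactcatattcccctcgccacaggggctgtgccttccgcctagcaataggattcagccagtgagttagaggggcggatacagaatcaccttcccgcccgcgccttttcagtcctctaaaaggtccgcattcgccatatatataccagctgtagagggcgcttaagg
H4c9 holds a TATA motif at bases -137 to -132, and none of the 4 motifs was found in the H4c6 window. The search took exact letters only. Near the gene start H4c9 also holds tataag and H4c6 tatatata, TATA-like stretches that were not counted. Over the 62 histone promoters, the CCAAT box was found in 50 and the TATA motif in 25, against 29.3% and 9.96% of all promoters. In the H4 class the CCAAT box was found in 3 of 11. The remaining called genes with a promoter were H3c4, with 2 CCAAT boxes and 3 TATA motifs, and H4c4, with 1 of each.

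**Figure D4:**
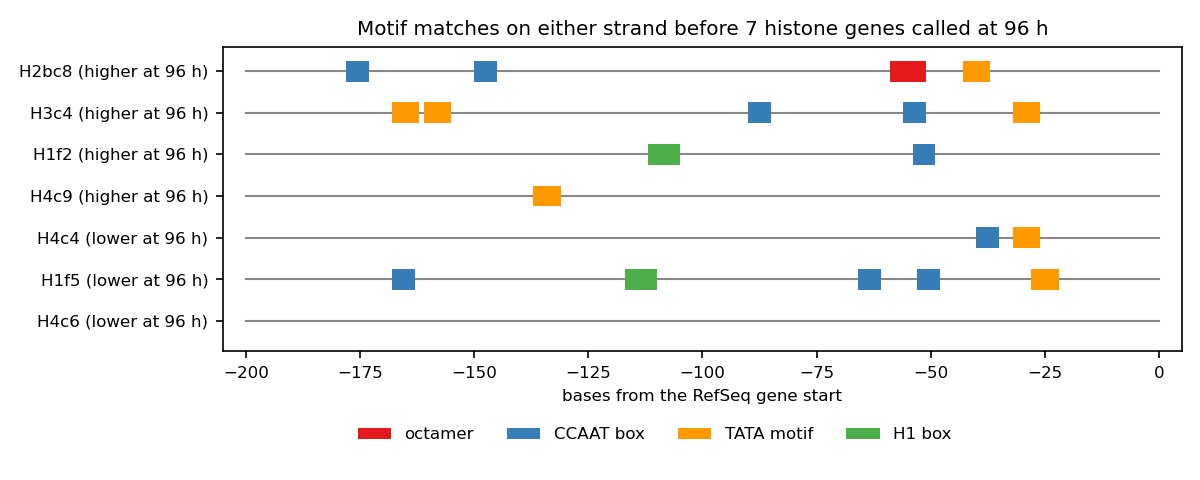
Position of each motif match, on either strand, in the 200 bases before the RefSeq start of 7 histone genes called at 96 h, with the 4 that rose above the 3 that fell. The octamer appears only in H2bc8, the only H2B gene shown, and the H1 box in H1f2 and H1f5. H4c6 has no match to the exact letters searched, which leave out other TATA-like stretches.

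The change between successive times was tested too. From 24 h to 48 h no histone cluster was called (limma), where 0.613% of all clusters were. Of the 56, 2 had an unadjusted p under 0.05, against 3188 of all 35399. H2bc4 was nearest, with a log2 change of 1.31 ± 0.23 at 48 h relative to 24 h (adjusted p = 0.0516). It passed with only single-symbol clusters tested, with only clusters over 5, with array weights, with a trended robust prior, and without 12 h replicate 1, 12 h replicate 2 or 24 h replicate 1.

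At 96 h relative to 48 h, 5 clusters rose (H1f2, H2bc4, H2bc8, H3c4 and H4c9) and 1 fell (H4c6), where 2.26% of all clusters were called higher and 2.46% lower (4.72% together). The log2 change over this step was 2.61 ± 0.19 for H1f2 (limma adjusted p = 8.87e-05). It was 1.79 ± 0.26 for H2bc4 (limma adjusted p = 0.005), 1.93 ± 0.33 for H2bc8 (0.0115) and 1.50 ± 0.14 for H4c9 (0.000403). It was 0.85 ± 0.09 for H3c4 (0.000672) and -1.11 ± 0.23 for H4c6 (0.0277). The H2bc8 call was lost without either 48 h array, and the H4c6 call without any 1 of the 48 h and 96 h arrays. The comparisons with 48 h and with untreated cells share the 96 h arrays.

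The 5 genes listed as described elsewhere to give polyadenylated mRNA in non-dividing cells were H1f2, H2ac6, H2bc4, H2bc12 and H2bc21. Of these 5, the 3 with a cluster of their own all rose at 96 h, where 7.77% of all clusters rose. Their median log2 change of 3.11 is that of H1f2, while H2bc21, near the floor, rose by 0.65. Of the 3, 2 were over 5, where 16.6% of all such clusters rose. At 48 h 1 rose, where 1.31% of all clusters did. H2ac6 and H2bc12 had no cluster of their own. The list was drawn up with earlier results of these data known, so its count is not independent evidence. The array does not separate polyadenylated from stem-loop mRNA.

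A list of histone variant genes was followed for context. It is not limited to replacement variants, which are made outside S phase or at special sites. Of 10 measured variant genes, 8 of them over 5, 2 rose and 4 fell at 96 h, where 7.77% of all clusters rose and 7.12% fell (16.6% and 16.3% of those over 5). H2aj, an H2A variant, had log2 levels of 8.45 and 8.22 at 96 h, against 6.69, 6.73 and 6.72 in untreated cells, and was called at 48 h (log2 change 0.65 ± 0.11, limma adjusted p = 0.0219) and at 96 h (1.63 ± 0.11, 2.51e-05). H2aw rose by 1.00 ± 0.16 at 96 h on the log2 scale (adjusted p = 0.00318) and was named after its value was seen. Cenpa, the centromeric H3 variant, fell furthest (log2 change -3.53). H2az1, an H2A.Z gene, had a log2 change of -1.94, Macroh2a2 of -1.54 and H2ax, the variant phosphorylated at DNA breaks, of -0.94 (limma adjusted p of the 4 genes 1.5e-06 to 0.000337). H3f3b was not measured by a cluster of its own.

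Of 18 genes that process histone mRNA, 1 was higher and 8 were lower at 96 h, and 3 were lower at 48 h. Of the 18, 17 were over 5, and of all clusters over 5, 16.6% were higher and 16.3% lower at 96 h and 4.02% were lower at 48 h (7.77%, 7.12% and 1.79% of all clusters). Slbp, whose product binds the stem-loop, had log2 levels of 7.08 and 7.15 at 96 h, against 8.38, 8.38 and 8.53 in untreated cells. Its log2 change was -1.31 ± 0.15 (SE, limma adjusted p = 0.000377), and at 48 h it was -0.32, not called (adjusted p = 0.298).

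Eri1, an exonuclease that trims the histone mRNA end, fell at both times, with log2 changes of -0.97 at 48 h and -1.40 at 96 h (limma adjusted p = 0.00276 and 3.15e-05). At 96 h Casp8ap2, a component of histone locus bodies, had a log2 change of -0.88, Cpsf2, a subunit of the cleavage complex, of -0.85 and Srrt, which links the cap to processing factors, of -0.70 (limma adjusted p = 0.000227 to 0.00173). Lsm10, of the U7 particle that positions the cleavage, was the 1 higher gene (log2 change 1.00 ± 0.26, adjusted p = 0.0316), named after its value was seen. Over the 18 the median log2 change at 96 h was -0.23, against -0.00 over all clusters.

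Among the transcription regulators of histone genes, 1 of 15 was higher at 96 h and 7 were lower, with 2 lower at 48 h, and 14 of the 15 were over 5. The shares of all clusters were 7.77% higher and 7.12% lower at 96 h and 1.79% lower at 48 h (16.6%, 16.3% and 4.02% of those over 5). Npat, the coactivator that cyclin E and Cdk2 phosphorylate at histone loci, had log2 levels of 7.49 and 7.52 at 96 h, against 7.68, 7.73 and 7.72 in untreated cells, and did not pass the test (log2 change -0.20 ± 0.09, limma adjusted p = 0.23). The genes of cyclin E and its partner fell, with log2 changes of -3.04 for Ccne1, -2.86 for Ccne2 and -1.50 for Cdk2. Ccna2, the S-phase cyclin A gene, had a log2 change of -4.78 (limma adjusted p for these 4 genes 4.74e-07 to 0.000379). Creb1 was the 1 higher gene, at 0.39 ± 0.09 (adjusted p = 0.013), and was named after its value was seen. Casp8ap2 stands in both lists.

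Histone chaperones carry new histones to DNA. Of 22 measured genes, 12 were lower at 96 h and 7 at 48 h, and 0 were higher at either time (limma, adjusted p under 0.05). At 96 h 1 was higher with the replicate block, and 1 without the 3 arrays that deviated together. All 22 were over 5, where 16.3% were lower at 96 h and 4.02% at 48 h, against 7.12% and 1.79% of all clusters. The median log2 change at 96 h was -0.83. Asf1b, which hands H3 and H4 to the assembly machinery, had log2 levels of 4.97 and 5.36 at 96 h, against 9.37, 9.51 and 9.52 in untreated cells. At 48 h it stood at 8.18 and 8.14.

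The 96 h log2 change of Asf1b was -4.30 ± 0.10 (SE, limma adjusted p = 1.12e-07). Chaf1b and Chaf1a, subunits of chromatin assembly factor 1, fell as well. Chaf1b had log2 levels of 4.18 and 4.33 at 96 h, against 8.29, 8.39 and 8.09 in untreated cells, and Chaf1a had a log2 change of -3.06. For Mcm2, a helicase subunit that also binds histones, the log2 change was -2.56, and for Nasp, which holds soluble histones, -2.08 (limma adjusted p of the 4 genes 2.42e-07 to 4.88e-07). The 96 h means of 4.26 for Chaf1b and 4.45 for Chaf1a lie near the floor. The 4 lists were drawn up with earlier results of these data known, and Ssrp1, Hjurp and Pou2f1 had no cluster of their own.

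**Figure D5:**
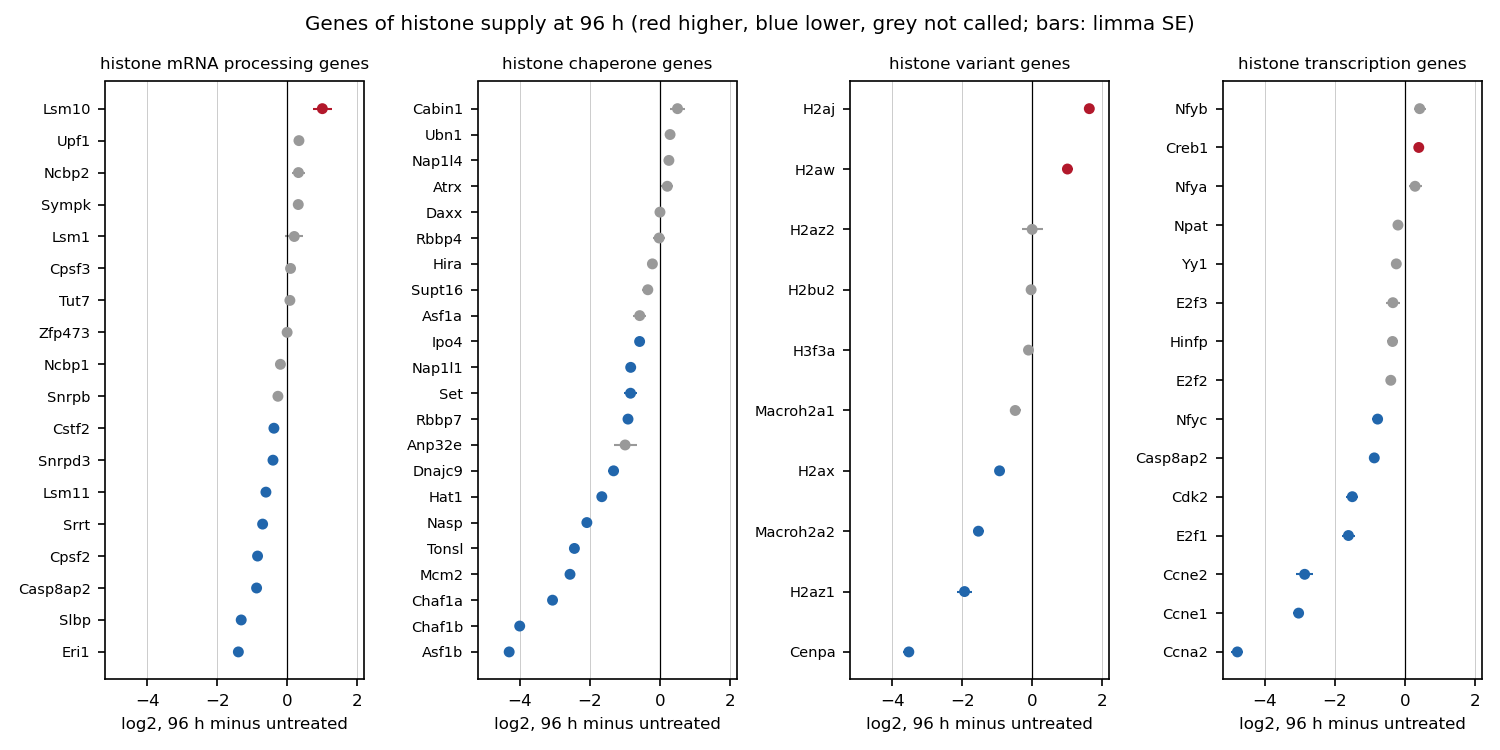
Log2 change at 96 h of DFMO relative to untreated cells, with limma's standard error as bars. The genes are those measured from 4 lists, of histone mRNA processing, chaperones, variants and transcription. The chaperone panel holds 12 lower calls and 0 higher, with Asf1b at -4.30, while H2aj, H2aw, Lsm10 and Creb1 are the higher calls of the other panels.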

How the data were processed

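Per the labels' protocols, cells were seeded a day before the drug, and biotin-labelled cDNA came from total RNA with a whole-transcript kit. The authors deposited log2 values, 1 per transcript cluster and array, with RMA and Partek named per the submitters' processing notes. RMA normalises by quantiles, so a shift of all transcripts would be hidden. For the array itself, no genome build was given in these sources.

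Symbols came from the platform annotation (21789 clusters with 1 symbol, 1621 with several, 11989 with none), and 28551 symbol identifiers matched the RefSeq table, with 0 updates. With limma 3.58.1 (R 4.3.3), 1 mean was estimated for each group from all 12 arrays and 35399 clusters. Two-sided p-values were adjusted over all clusters of a comparison (Benjamini-Hochberg), with calls under 0.05, and SE is limma's. The fit was tested on simulated data with independent noise on each array, which does not cover arrays that deviate together. The number of arrays limits the precision, and 0 columns lacked a sample.

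Named were up to 16 called clusters with the smallest F test p, all linker clusters and the 5 highest untreated ones (for near-identical shared H3 clusters their mean and 1 example), and from each list up to 5 called genes with the smallest F test p, with Slbp and Npat. Some list genes are given by their log2 change only. Members and lists were chosen with earlier results of these data known. Figures used Python 3.11.15, pandas 2.3.3 and matplotlib 3.10.9.

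Between untreated and 24 h arrays of equal replicate number, deviations from group means correlated with r of 0.1356, 0.2881 and 0.4918. Between unlike numbers of the same groups r lay between -0.3531 and 0.1731. In another pair of groups, arrays of unlike number correlated too (0.36 for untreated replicate 3 with 12 h replicate 2). The labels do not say whether equal numbers pair the arrays, and the main fit does not model such pairing. With the block, 0 histone clusters were called at 24 h. The other times have 2 shared numbers each, too few for this check.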

Additional observations from a re-analysis of the deposited data

How the results depend on the processing

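The count of histone clusters called at 96 h, 22, ranged from 8 to 26 when 1 array was left out, was 13 by distinct symbol sets (an alternative chosen after seeing the data) and 10 with only single-symbol clusters tested (7 higher, 3 lower). It was 29 (15 higher, 14 lower) with only the groups compared in the fit and 27 (9 higher, 18 lower) with array weights. Of all clusters tested, 21.9% were called at 96 h with single-symbol clusters, 14% with only the groups compared and 16.1% with array weights. The main fit called 14.9%. At 48 h the count was 2 with the replicate block, against 1, and 1 in each fit that left out 1 array. At 48 h relative to 24 h it was 1 with single-symbol clusters, clusters over 5, array weights or a trended robust prior, and 0 to 1 with 1 array left out. For the F test it was 9 with single-symbol clusters, 8 with the replicate block and 5 to 20 with 1 array left out. At 96 h relative to 48 h it ran from 4 to 8 with 1 array left out. The block moved no other count of histone clusters by more than 1.5 times. Of 926 alternatives for the 24 named histone clusters at 48 h and 96 h, 892 kept their side of the threshold, 28 lost a call and 6 gained one, with no change of direction among called values. The cause of these differences was not tested, apart from fewer arrays or clusters where these were left out. Where a fit left 1 array in a group, that array is assumed to vary like the others. Values not called in the main fit, which are among the 926, could not lose a call. The 28 against 926 is therefore not a rate of loss for calls. Clusters near the floor have folds that are too small, near-identical copies cannot be told apart, and 2 arrays at 12, 48 and 96 h limit the precision.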
